A study of Mus musculus with 12 samples.

Results

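The Hox cluster genes measured here were every array probe whose transcript carries a symbol made of Hox, a cluster letter from a to d and a number. The rule found 46 probes for 36 genes, out of 41174 distinct probes on the array and of 39 such genes in the mouse reference table. By cluster there were 14 probes for 11 genes of Hoxa (chromosome 6), 13 for 10 genes of Hoxb (chromosome 11), 7 for 6 genes of Hoxc (chromosome 15) and 12 for 9 genes of Hoxd (chromosome 2). Of these genes, 10 had 2 probes. Hoxc4, Hoxc6 and Hoxc11 had no matched probe and were not analysed here.

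Messenger RNA was measured on 12 single-colour arrays in a mouse study of organ regeneration by stroma-dependent reprogramming of adult cells. The 4 groups had 3 arrays each: reprogrammed lung (replicates 1, 3 and 4), reprogrammed mammary (1, 2 and 3), adult lung (1, 2 and 3) and adult mammary (1, 2 and 4). Adult cells came from female mice of 10 weeks, whose organs were broken up with trypsin and collagenase A and whose epithelium was enriched by washing and slow spins, with no sort stated. All samples are labelled epithelial cells, and donor cells were prepared in Matrigel for transplantation. Strain and genotype are not stated, nor is whether a reprogrammed sample is named after its source organ or after the organ it formed. Separate animals are not stated for the 3 arrays per group either, and p-values therefore measure the spread between arrays, which may be technical.

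Hox genes encode homeodomain transcription factors that give cells of the embryo their position along the head-to-tail axis. They lie in 4 clusters that arose by duplication, so genes in the same place of different clusters form a paralog group, and low-numbered groups are used nearer the head than high-numbered ones. Many adult tissues, and fibroblasts above all, keep a Hox pattern that reflects where in the body they formed. In mouse, Hoxa5 and Hoxb5 are known from lung development, and Hoxa9, Hoxb9 and Hoxd9 together from mammary growth in pregnancy.

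Promoters are shown for Hoxa5, which was higher in adult lung than in adult mammary, and for the neighbours Hoxd9, Hoxd8 and Hoxd4, which were lower. Hoxc10, with the largest difference, is not shown. Each window runs from 250 bases before to 50 after the start in the RefSeq table of GRCm38.p6, 5′ to 3′ on the gene's strand, with motif matches in capitals. Hoxa5 is at chr6:52204538-52204837 (minus strand), Hoxd9 at chr2:74697513-74697812, Hoxd8 at chr2:74704365-74704664 and Hoxd4 at chr2:74721728-74722027 (plus strand).
Hoxa5: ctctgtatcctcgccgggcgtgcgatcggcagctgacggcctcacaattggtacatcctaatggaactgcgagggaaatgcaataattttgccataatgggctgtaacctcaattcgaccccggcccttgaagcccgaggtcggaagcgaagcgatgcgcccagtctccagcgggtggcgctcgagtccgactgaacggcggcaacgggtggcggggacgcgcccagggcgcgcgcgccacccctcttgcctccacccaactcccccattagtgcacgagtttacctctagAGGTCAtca
Hoxd9: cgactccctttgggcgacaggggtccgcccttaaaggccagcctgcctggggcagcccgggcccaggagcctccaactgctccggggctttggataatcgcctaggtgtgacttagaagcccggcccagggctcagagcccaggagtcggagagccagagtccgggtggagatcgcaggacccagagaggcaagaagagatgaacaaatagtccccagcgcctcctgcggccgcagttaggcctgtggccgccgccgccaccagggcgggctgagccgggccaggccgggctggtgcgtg
Hoxd8: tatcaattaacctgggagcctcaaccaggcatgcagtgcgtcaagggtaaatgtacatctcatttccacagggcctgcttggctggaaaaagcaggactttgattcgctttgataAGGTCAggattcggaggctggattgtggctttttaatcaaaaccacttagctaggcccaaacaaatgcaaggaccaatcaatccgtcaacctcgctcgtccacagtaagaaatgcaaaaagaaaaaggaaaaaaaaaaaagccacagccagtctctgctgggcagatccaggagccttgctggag
Hoxd4: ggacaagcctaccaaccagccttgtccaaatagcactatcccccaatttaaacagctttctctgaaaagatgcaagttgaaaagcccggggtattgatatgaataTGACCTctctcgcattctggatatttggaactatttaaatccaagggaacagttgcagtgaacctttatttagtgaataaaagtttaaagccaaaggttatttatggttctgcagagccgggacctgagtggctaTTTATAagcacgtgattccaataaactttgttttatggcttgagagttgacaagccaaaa
The motifs searched on both strands were AGGTCA, the half-site bound by retinoic acid receptors, TATAAA, the TATA box, and TGATNNAT, a joint site of Hox and Pbx proteins, and no matches overlapped in these 4 windows. AGGTCA was found once each in Hoxa5, Hoxd8 and Hoxd4 (there as its reverse complement TGACCT), and TATAAA once in Hoxd4 (as TTTATA). Hoxd9 held no match to any of the 3. Over the 24 windows that the table holds for 22 Hox genes, 7 had AGGTCA against 16.3% of all 32851 windows, 4 had TATAAA against 13.6% and 4 had TGATNNAT against 8.85%. The Hox windows held a median of 14.5 CpG dinucleotides, from 4 to 45, against a median of 7 over all windows. Among the windows shown, CpG counts were 29 in Hoxa5, 20 in Hoxd9, 6 in Hoxd8 and 4 in Hoxd4. A match describes the letters alone and no factor was measured.

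Each level given is the log2 signal with the 75th percentile of the same array set to 0, and levels of different probes cannot be set against each other. A probe was tested where it was well above background on all 3 arrays of at least 1 group, which held for 35 Hox probes of 29 genes. The other 11 probes covered 7 genes with no tested probe: Hoxa10, Hoxa11, Hoxb1, Hoxc5, Hoxc13, Hoxd1 and Hoxd11. Hoxb1, the hindbrain gene of the set, was not well above background on any array. The number of Hox probes above background was 44, 33 and 35 in reprogrammed lung, 32, 35 and 37 in reprogrammed mammary, 26, 30 and 29 in adult lung, and 36, 31 and 44 in adult mammary. The 2 counts of 44 belong to reprogrammed lung replicate 1 and adult mammary replicate 4, where 91.1% and 89.1% of all probes were above background against 71.8% to 77.5% elsewhere, and whose signals covered a narrower range between their 10th and 90th percentiles (6.10 and 7.11 against 8.46 to 9.13). Of the 11 untested probes, 9 were above background on the first of these arrays and 9 on the second, so results are also given without both.

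**Figure D1:**
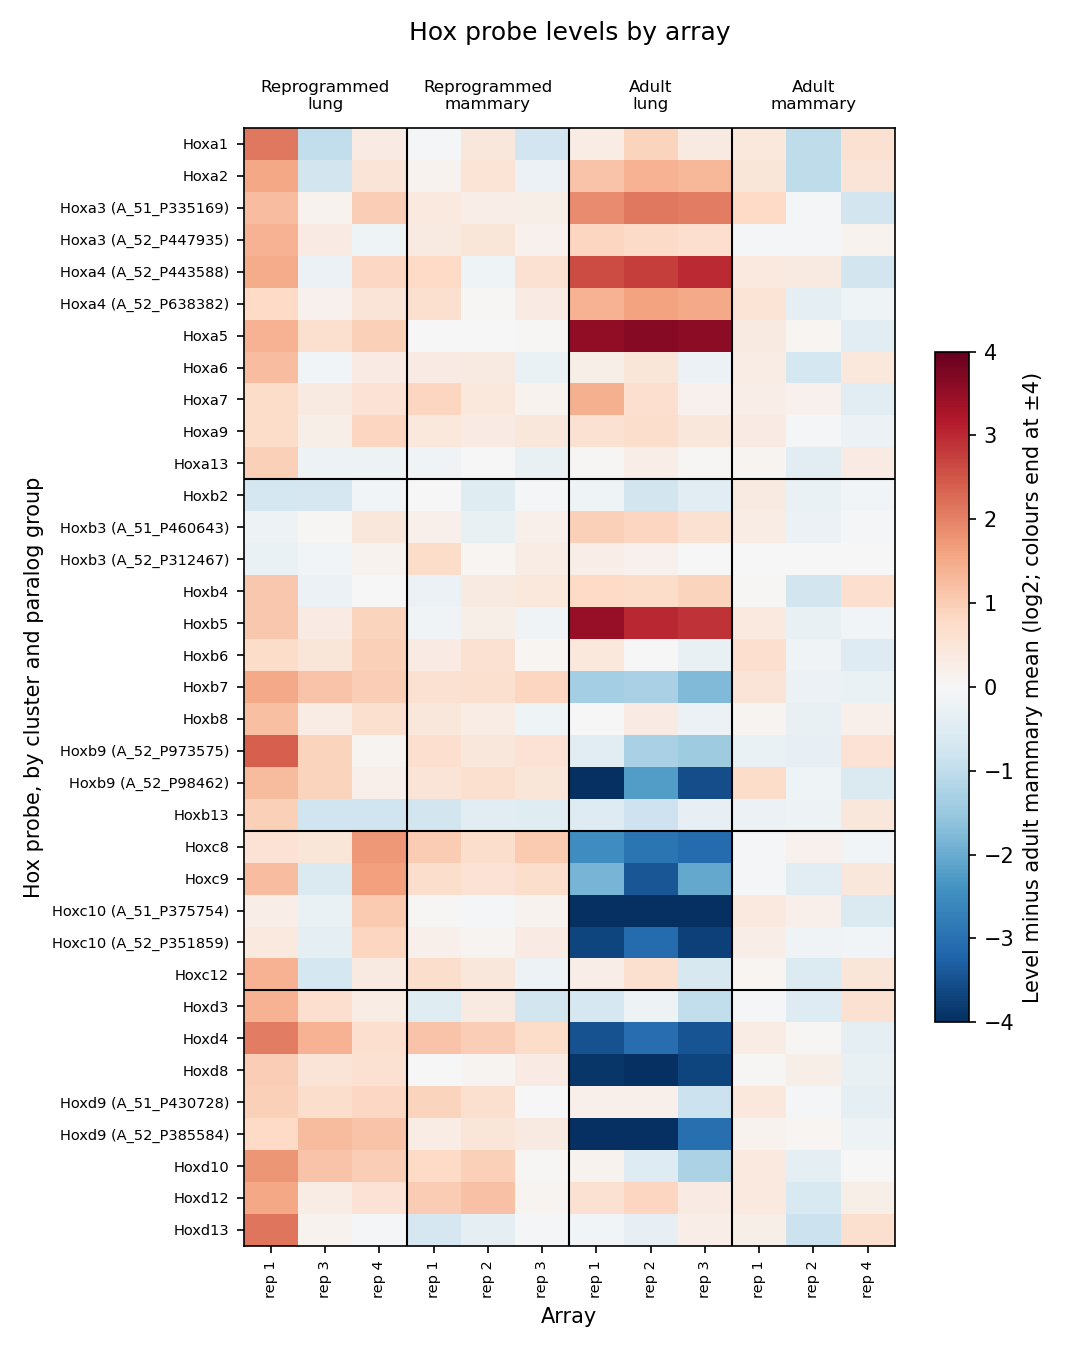
Level of each of the 35 tested Hox probes (rows, by cluster and paralog group) on each array (columns), shown as the log2 difference from the adult mammary mean of that probe. Adult lung alone departs strongly, with Hoxa3 to Hoxa5 and Hoxb5 higher and Hoxb9, Hoxc8 to Hoxc10, Hoxd4, Hoxd8 and 1 probe of Hoxd9 lower.

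Adult lung cells had higher Hoxa3 to Hoxa5, Hoxb3 and Hoxb5 and lower Hoxb7, Hoxb9, Hoxc8 to Hoxc10, Hoxd4, Hoxd8 and Hoxd9 than adult mammary cells. With limma over all 12 arrays, 15 of 35 Hox probes (42.9%) passed an adjusted p of 0.05, against 29.3% of all probes tested. Of these, 6 probes of 5 genes were higher in lung (all probes: 12.8%) and 9 probes of 8 genes were lower (all probes: 16.5%). The 6 higher probes were Hoxa3, Hoxa4 (both probes), Hoxa5, Hoxb3 and Hoxb5, all from paralog groups 3 to 5 of clusters A and B. The 9 lower probes were Hoxb7, Hoxb9, Hoxc8, Hoxc9, Hoxc10 (both probes), Hoxd4, Hoxd8 and Hoxd9. Hoxd4 was thus the single low-numbered gene among those lower in lung. By paralog group, 6 of 14 tested probes of groups 1 to 5 were higher and 1 lower, whereas 0 of 21 probes of groups 6 to 13 were higher and 8 lower. By cluster, 4 of 11 Hoxa probes were higher and 0 lower, Hoxb had 2 of 11 in each direction, and 4 of 5 Hoxc and 3 of 8 Hoxd probes were lower with 0 higher. Both directions thus occurred within cluster B alone, and no Hoxc gene of groups 1 to 5 was tested. The difference between paralog classes was not itself tested. In these bulk samples, fewer cells of a type and less RNA per cell cannot be told apart.

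**Figure D2:**
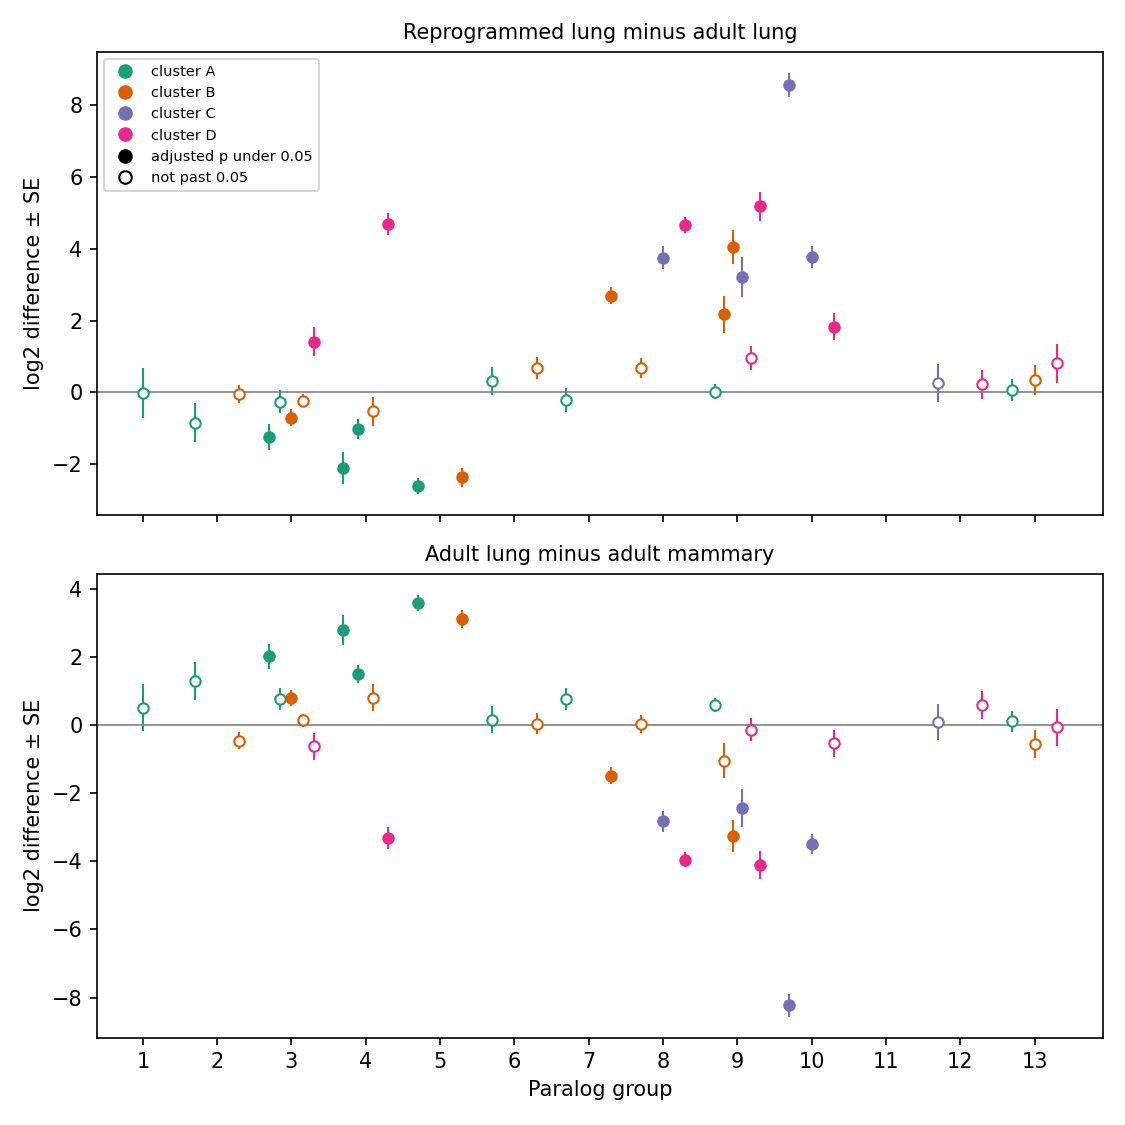
Log2 difference with its standard error for each tested Hox probe against its paralog group, for reprogrammed lung minus adult lung (top) and adult lung minus adult mammary (bottom), which share the adult lung arrays. Filled points passed an adjusted p of 0.05. Points past the threshold below 0 in the top panel lie in groups 3 to 5, and those above 0 in groups 3, 4 and 7 to 10.

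Among the genes higher in lung, Hoxa5, which mouse lung mesenchyme needs for normal airway and alveolar development, was at -1.75, -2.49 and -2.19 in reprogrammed lung, -3.15, -3.13 and -3.07 in reprogrammed mammary, 0.43, 0.52 and 0.45 in adult lung, and -2.77, -3.05 and -3.56 in adult mammary. Every adult lung array thus lay above every array of the other 3 groups. Hoxa5 was 12.05-fold higher in adult lung than in adult mammary (log2 3.59 ± 0.23 SE, adjusted p = 7.19e-06). It was 6.09-fold lower in reprogrammed lung than in adult lung (log2 difference -2.61 ± 0.23, adjusted p = 4.97e-05). Hoxb5, its paralog and also a gene of lung branching, was at -1.85, -2.60 and -2.03 in reprogrammed lung, -3.07, -2.70 and -3.08 in reprogrammed mammary, 0.55, 0.10 and -0.04 in adult lung, and -2.52, -3.23 and -3.02 in adult mammary. Its arrays split the same way, with a log2 difference of 3.13 ± 0.26 between the adult organs (8.74-fold, adjusted p = 3.09e-05) and of -2.36 ± 0.26 between reprogrammed and adult lung (adjusted p = 0.000186). Within the slides that hold both groups, Hoxa5 differed between reprogrammed and adult lung by -2.92, -2.20 and -2.71 and Hoxb5 by -3.15, -1.81 and -2.13.

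Hoxa4 and Hoxa3, which pattern neck structures, had smaller differences in the same directions. With probe A_52_P443588, Hoxa4 was at -2.21, -3.93 and -2.88 in reprogrammed lung, -2.89, -3.86 and -3.10 in reprogrammed mammary, -1.08, -0.92 and -0.71 in adult lung, and -3.32, -3.35 and -4.42 in adult mammary. With A_52_P638382 it was at -0.67, -1.30 and -0.95 in reprogrammed lung, -0.82, -1.41 and -1.14 in reprogrammed mammary, -0.06, 0.15 and 0.05 in adult lung, and -0.90, -1.85 and -1.63 in adult mammary. On both probes adult lung did not overlap any other group. The adult organs differed by 2.79 ± 0.45 and 1.51 ± 0.27 (adjusted p = 0.00123 and 0.00216), and reprogrammed from adult lung by -2.10 ± 0.45 and -1.02 ± 0.27 (adjusted p = 0.00682 and 0.0188). The last of these calls was lost with normexp background correction (-0.79) and without adult lung replicate 2 (-0.97), adult lung replicate 3 (-1.02) or reprogrammed lung replicate 3 (-0.86).

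For Hoxa3, probe A_51_P335169 was at -0.14, -1.22 and -0.38 in reprogrammed lung, -0.98, -1.08 and -1.14 in reprogrammed mammary, 0.54, 0.76 and 0.69 in adult lung, and -0.55, -1.43 and -2.09 in adult mammary. The other probe, A_52_P447935, was at 1.23, 0.18 and -0.33 in reprogrammed lung, 0.20, 0.35 and 0.02 in reprogrammed mammary, 0.71, 0.62 and 0.53 in adult lung, and -0.20, -0.24 and -0.01 in adult mammary. On the second probe the reprogrammed lung arrays spanned the adult lung ones. The adult organs differed by 2.02 ± 0.37 on the first probe (adjusted p = 0.00252) and 0.77 on the second (adjusted p = 0.0986). Between reprogrammed and adult lung the differences were -1.24 ± 0.37 (adjusted p = 0.0323) and -0.26 (adjusted p = 0.618). Removing any single adult lung array ended the call on the first probe (-1.31, -1.20 and -1.23), as did removing reprogrammed lung replicate 3 (-0.92). The second probe passed instead without reprogrammed lung replicate 1, at -0.70 (adjusted p = 0.0184), and without that array it also passed between the adult organs, at 0.77 (adjusted p = 0.00528). Leaving out reprogrammed lung replicate 4 likewise brought its adult difference, 0.77, past the threshold (adjusted p = 0.0393).

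Hoxb3, a gene of the hindbrain and neck, had the smallest called difference of the set. Probe A_51_P460643 was at -0.41, -0.15 and 0.24 in reprogrammed lung, 0.02, -0.49 and 0.02 in reprogrammed mammary, 0.74, 0.65 and 0.42 in adult lung, and 0.10, -0.42 and -0.27 in adult mammary. Adult lung was again above all other arrays, but by little. The differences were 0.80 ± 0.23 between the adult organs (adjusted p = 0.024) and -0.71 ± 0.23 between reprogrammed and adult lung (adjusted p = 0.0468). The first call was lost without adult lung replicate 1 (0.73) or 2 (0.78) and without adult mammary replicate 2 (0.69) or 4 (0.76), and the second in 19 of 24 settings tested, among them each removal of 1 adult lung array (-0.64, -0.69 and -0.80), of reprogrammed lung replicate 1 (-0.56) or 3 (-0.69), and, with the difference left at -0.71, of adult mammary replicate 2 or 4 or reprogrammed mammary replicate 1 or 3. The other Hoxb3 probe, A_52_P312467, was between -3.38 and -2.38 on all 12 arrays and was not called in either comparison.

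Of the genes lower in lung, Hoxc10 had the largest difference. This gene of lumbar and hindlimb identity in mouse was at 1.66, 1.12 and 2.43 in reprogrammed lung, 1.42, 1.32 and 1.53 in reprogrammed mammary, -6.71, -7.12 and -6.69 in adult lung, and 1.76, 1.58 and 0.81 in adult mammary with probe A_51_P375754. No adult lung array was well above background, so the difference is a bound. Here and below, it was computed with each adult lung array held at its lowest signal among probes well above background. Such bounds hold for the background correction of the main fit alone. Under normexp background correction, A_51_P375754 gave log2 differences of -3.32 between the adult organs and 3.62 between reprogrammed and adult lung. Adjusted p-values printed beside a bound come from the limma fit to the signals as measured, including those below background, and not from the bound. Hoxc10 was at least 82.1-fold lower in adult lung than in adult mammary (adjusted p = 9.2e-07) and at least 105-fold higher in reprogrammed lung than in adult lung (adjusted p = 1.03e-06). With A_52_P351859 it was at -0.51, -1.26 and -0.02 in reprogrammed lung, -0.70, -0.78 and -0.56 in reprogrammed mammary, -4.56, -3.95 and -4.61 in adult lung, where 2 of 3 arrays were above background, and -0.62, -1.04 and -1.004 in adult mammary. This probe gave -3.49 ± 0.30 between the adult organs (adjusted p = 3.57e-05) and 3.78 ± 0.30 between reprogrammed and adult lung (adjusted p = 2.67e-05). Both probes thus gave the same direction but not the same size, with fitted log2 differences 4.74 and 4.80 apart in these comparisons. The exact gap is not known, because the first probe has only a bound. In the main fit that bound exceeded the difference of the second probe in both comparisons.

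Hoxc8, a gene of thoracic identity also known from mammary placode positioning, was at -3.66, -3.74 and -2.49 in reprogrammed lung, -3.22, -3.52 and -3.18 in reprogrammed mammary, -6.70, -7.15 and -7.29 in adult lung, and -4.28, -4.06 and -4.35 in adult mammary. No adult lung array was well above background for it. Hoxc8 was at least 1.68-fold lower in adult lung than in adult mammary (adjusted p = 0.000155) and at least 3.20-fold higher in reprogrammed than in adult lung (adjusted p = 3.36e-05). Its adult call was lost with the authors' deposited log2 values (-0.89, adjusted p = 0.0584). Hoxc9, its neighbour, was at -1.50, -3.31 and -1.09 in reprogrammed lung, -2.01, -2.14 and -2.02 in reprogrammed mammary, -4.58, -6.14 and -4.79 in adult lung, where 1 of 3 arrays was above background, and -2.78, -3.14 and -2.27 in adult mammary. Adult lung lay below all other arrays, while reprogrammed lung replicate 3 lay below every mammary array. The Hoxc9 differences were -2.44 ± 0.56 between the adult organs (adjusted p = 0.00844) and 3.21 ± 0.56 between reprogrammed and adult lung (adjusted p = 0.0023). With the slide as a block the first was -2.47 and no longer passed (adjusted p = 0.103).

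In cluster D, Hoxd9, which acts with its group 9 paralogs in limb and mammary development, was at 3.34, 3.82 and 3.70 in reprogrammed lung, 2.85, 3.04 and 2.90 in reprogrammed mammary, -1.70, -2.53 and -0.47 in adult lung, and 2.69, 2.62 and 2.34 in adult mammary with probe A_52_P385584. All arrays were above background for this probe, and the groups fell in the order reprogrammed lung, reprogrammed mammary, adult mammary and adult lung with no overlap. It was 17.3-fold lower in adult lung than in adult mammary (log2 -4.11 ± 0.41, adjusted p = 8.01e-05) and 36.4-fold higher in reprogrammed than in adult lung (log2 5.19 ± 0.41, adjusted p = 2.49e-05). Probe A_51_P430728 of the same gene was at -1.07, -1.31 and -1.19 in reprogrammed lung, -1.13, -1.38 and -2.04 in reprogrammed mammary, -1.79, -1.79 and -2.86 in adult lung, and -1.59, -2.07 and -2.37 in adult mammary. On it the adult organs overlapped, with a difference of -0.14 (adjusted p = 0.793), and reprogrammed lung exceeded adult lung by 0.96 (adjusted p = 0.0632). The 2 probes differed by 3.98 and 4.23 log2 units in these comparisons. Probe sequences were not used here, so which transcripts each probe reports was not tested.

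Hoxd8 and Hoxd4 were below background in adult lung. Hoxd8 was at -1.67, -2.14 and -2.05 in reprogrammed lung, -2.64, -2.56 and -2.32 in reprogrammed mammary, -6.54, -6.98 and -6.32 in adult lung, and -2.61, -2.41 and -2.94 in adult mammary. Hoxd4, a neck gene that retinoic acid induces in the mouse embryo, was at -0.18, -0.84 and -1.54 in reprogrammed lung, -1.08, -1.22 and -1.48 in reprogrammed mammary, -5.70, -5.25 and -5.66 in adult lung, and -1.91, -2.17 and -2.57 in adult mammary. Neither gene was well above background on any adult lung array, and both were so on all others. Against adult mammary, adult lung was at least 4.99-fold lower for Hoxd8 (adjusted p = 3.73e-06) and at least 6.77-fold lower for Hoxd4 (adjusted p = 6.43e-05). Against adult lung, reprogrammed lung was at least 8.12-fold higher for Hoxd8 (adjusted p = 2.34e-06) and at least 17.4-fold higher for Hoxd4 (adjusted p = 1.09e-05). Both promoters, shown above, hold AGGTCA, as does that of Hoxa5, which was higher in adult lung, while that of Hoxd9 does not. Any part of the motif in these levels was not tested.

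Hoxd10 and Hoxd3 passed in reprogrammed lung minus adult lung but not between the adult organs. Hoxd10, a lumbar and hindlimb gene, was at -0.83, -1.47 and -1.60 in reprogrammed lung, -1.78, -1.63 and -2.54 in reprogrammed mammary, -2.45, -3.10 and -3.85 in adult lung, and -2.21, -2.997 and -2.57 in adult mammary. Reprogrammed lung exceeded adult lung by 1.83 ± 0.39 (adjusted p = 0.00657), while the adult organs overlapped. Hoxd3, probe A_52_P209132, was at -2.83, -3.54 and -3.90 in reprogrammed lung, -4.71, -3.85 and -4.96 in reprogrammed mammary, -4.88, -4.43 and -5.20 in adult lung, where 1 of 3 arrays was above background against 2 of 3 in reprogrammed mammary, and -4.29, -4.74 and -3.62 in adult mammary. Its difference between reprogrammed and adult lung was 1.41 ± 0.40 (adjusted p = 0.0257), and was lost without adult lung replicate 1 (1.39) or 3 (1.23) and without reprogrammed lung replicate 1 (1.11) or 3 (1.47). With the slide as a block it was 1.41 and did not pass (adjusted p = 0.0863). Whether the effect in the lung comparison differs from that between the adult organs was not tested.

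In cluster B, Hoxb7, a gene of trunk identity, was at 0.30, -0.06 and -0.23 in reprogrammed lung, -0.60, -0.57 and -0.36 in reprogrammed mammary, -2.57, -2.51 and -2.98 in adult lung, and -0.70, -1.45 and -1.47 in adult mammary. Adult lung was lowest and reprogrammed lung highest, with no overlap between either and any other group. The differences were -1.48 ± 0.24 between the adult organs (adjusted p = 0.00146) and 2.69 ± 0.24 between reprogrammed and adult lung (adjusted p = 5.72e-05). The first was -1.33 and no longer passed with the slide as a block (adjusted p = 0.0681). Hoxb9, probe A_52_P98462, was at -0.33, -0.68 and -1.38 in reprogrammed lung, -1.06, -0.95 and -1.09 in reprogrammed mammary, -5.58, -3.82 and -5.13 in adult lung, where 1 of 3 arrays was above background, and -0.84, -1.74 and -2.16 in adult mammary. Its other probe, A_52_P973575, was at -0.91, -2.42 and -3.18 in reprogrammed lung, -2.63, -2.85 and -2.71 in reprogrammed mammary, -3.71, -4.60 and -4.72 in adult lung, and -3.55, -3.63 and -2.71 in adult mammary. Adult lung lay below all other groups on both probes. The adult organs differed by -3.26 ± 0.47 on the first (adjusted p = 0.00066) and by -1.05 on the second (adjusted p = 0.152), which passed without reprogrammed lung replicate 1 (-1.05, adjusted p = 0.034). Reprogrammed lung exceeded adult lung by 4.05 ± 0.47 and 2.17 ± 0.51 (adjusted p = 0.000232 and 0.0113).

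**Figure D3:**
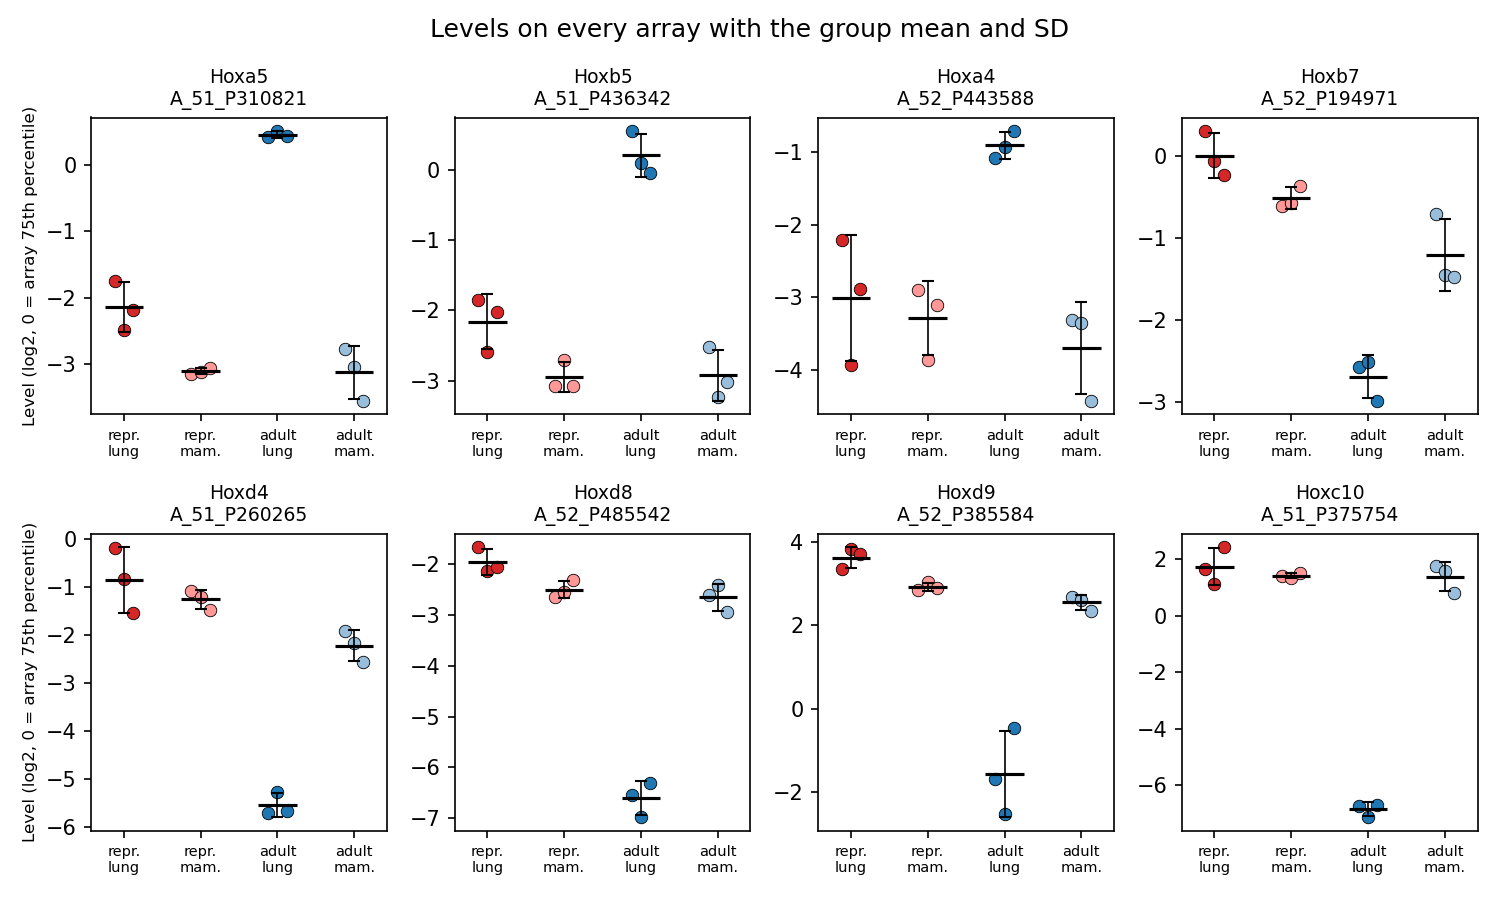
Levels of 8 Hox probes on every array (log2, 0 is the array's 75th percentile), with the group mean as a horizontal line and the standard deviation as a bar. Vertical axes differ between panels. Hoxa5, Hoxb5 and Hoxa4 are highest in adult lung, and Hoxb7, Hoxd4, Hoxd8, Hoxd9 and Hoxc10 lowest, with the adult lung points of Hoxd4, Hoxd8 and Hoxc10 not well above background.

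Reprogrammed lung cells therefore had 18 of 35 Hox probes past the threshold against adult lung cells (51.4%, all probes: 23.8%), 12 higher in 10 genes (all probes: 13.9%) and 6 lower in 5 genes (all probes: 9.84%). The 6 lower probes were those higher in adult lung than in adult mammary, and both comparisons share the adult lung arrays. Reprogrammed mammary cells had 16 probes past the threshold against the same adult lung arrays (45.7%, all probes: 26.8%), 10 higher (all probes: 15%) and 6 lower (all probes: 11.9%). Differences for reprogrammed mammary minus adult lung stood at -3.58 ± 0.23 for Hoxa5 (adjusted p = 6.68e-06), -3.15 ± 0.26 for Hoxb5 (adjusted p = 2.65e-05) and 4.49 ± 0.41 for Hoxd9 (adjusted p = 4.37e-05), with Hoxc10 at least 84.4-fold higher (adjusted p = 1.25e-06). Hoxb9 probe A_52_P973575 passed there by 1.62 (adjusted p = 0.039), but not without adult lung replicate 2 (1.49) or 3 (1.43), nor without any 1 reprogrammed mammary array (1.57, 1.67 and 1.61), nor without adult mammary replicate 1 or 2, which leave the difference at 1.62. Hoxb3 lost its call there (-0.75) without adult lung replicate 1 (-0.68) or 2 (-0.73) and without any 1 reprogrammed mammary array (-0.84, -0.59 and -0.84). Hoxd10, not called there at 1.15, passed without adult lung replicate 1 (1.49), without reprogrammed mammary replicate 3 (1.43), and at 1.15 without reprogrammed lung replicate 1.

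The slide and the background correction bear on these calls. Slides each held arrays of 2 or 3 groups, and with the slide as a block 13 Hox probes passed between the adult organs (11.7% of all probes) and 16 between reprogrammed and adult lung (17.8% of all probes). Hoxa5, Hoxb5, Hoxd9 (A_52_P385584) and Hoxc10 (A_51_P375754) kept their calls there, with reprogrammed minus adult lung values of -2.61, -2.36, 5.19 and 8.58, the last with adult lung below background. On the 1 slide with both adult organs the same 4 differed by 3.47, 3.78, -4.31 and -8.29. With both narrow-range arrays left out, 18 Hox probes passed between the adult organs (38% of all probes) and 19 between reprogrammed and adult lung (32.9% of all probes). Normexp background correction, which adds 50 intensity units to every signal, left 7 calls between the adult organs (5 higher, 2 lower, with 19.5% of all probes called) and 8 between reprogrammed and adult lung (4 higher, 4 lower, with 11.6% of all probes called). It also moved the median of all probes to 0.32 and -0.21 in these comparisons. Hoxd9 and Hoxc10, these same probes, remained lower in adult lung with it (-3.12 and -3.32), whereas Hoxb7 (-0.51), Hoxb9 (-0.74), the other Hoxc10 probe (-1.15), Hoxd4 (-0.29) and Hoxd8 (-0.04) did not pass, and Hoxc8 (0.53) and Hoxc9 (0.06) changed sign and were 0.20 above and 0.27 below the median of all probes. Between reprogrammed and adult lung, Hoxb7 (1.52), Hoxd9 (4.12) and both Hoxc10 probes (3.62 and 1.45) still passed as higher. Hoxd4 (1.33), Hoxd8 (0.48), Hoxc9 (0.53), Hoxd10 (0.47) and both Hoxb9 probes (1.34 and 0.19) did not, and Hoxc8 (-0.00053) and Hoxd3 (-0.28) changed sign, at 0.20 above and 0.08 below the median.

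**Figure D4:**
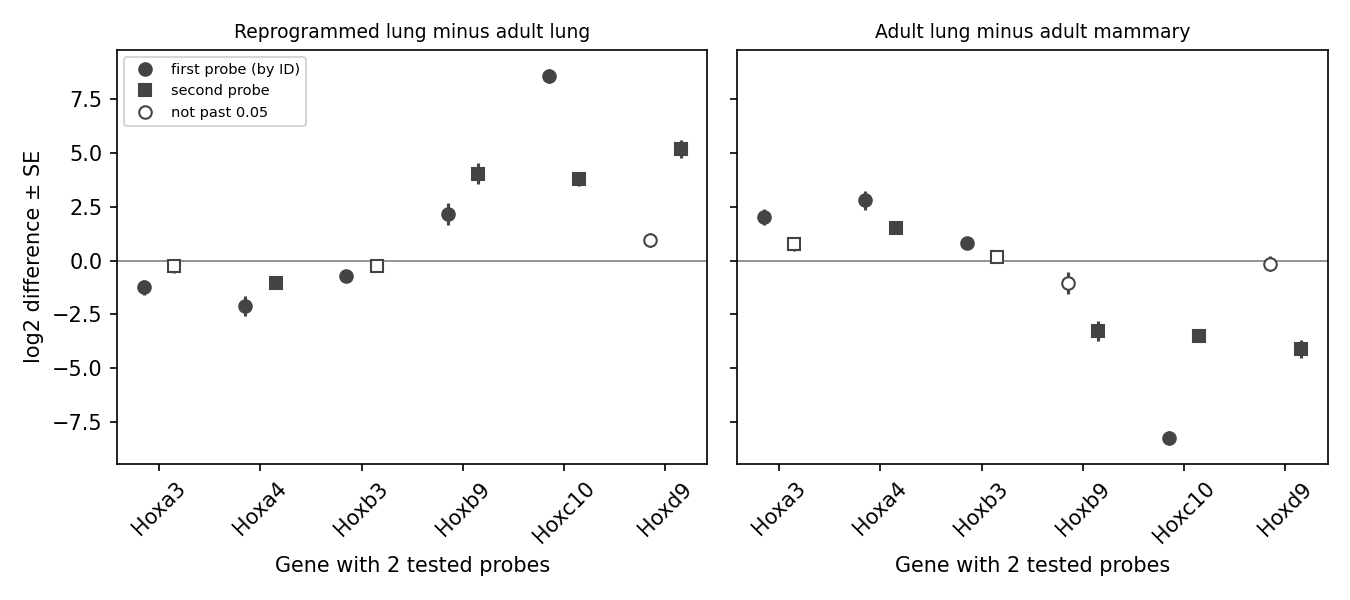
Log2 difference with its standard error for both probes of the 6 Hox genes with 2 tested probes, for reprogrammed lung minus adult lung (left) and adult lung minus adult mammary (right), which share the adult lung arrays. Filled points passed an adjusted p of 0.05. Both probes of each gene have the same sign in both comparisons, and the 2 probes of Hoxd9 lie far apart. The Hoxc10 point farthest from 0 rests on adult lung signals not well above background, so its size is not exact.

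Between the other groups no Hox probe passed. Reprogrammed mammary minus adult mammary gave 0 of 35 (all probes: 0.00315%), with 3 Hox probes at an unadjusted p under 0.05 (all probes: 10.5%). For Hoxa5 that difference was 0.01 with a 95% interval of -0.50 to 0.52, for Hoxb5 -0.03 (-0.61 to 0.56), for Hoxc10 0.04 (-0.70 to 0.78, A_51_P375754) and for Hoxd9 0.38 (-0.52 to 1.28, A_52_P385584). A value above 0 was found for 28 Hox probes (all probes: 50.6%), and 7 were higher on all reprogrammed arrays than on any adult one (all probes: 11.6%) against 1 lower (all probes: 11.9%). Hoxd4 at 0.96 (0.26 to 1.66), Hoxc8 at 0.92 (0.23 to 1.61) and Hoxb7 at 0.69 (0.15 to 1.23) had the 3 smallest p-values, with adjusted p = 0.341, 0.345 and 0.363 from limma. Reprogrammed lung minus reprogrammed mammary likewise gave 0 (all probes: 0.00629%), with 5 at an unadjusted p under 0.05 (all probes: 9.61%), and its largest of these was Hoxd3 at 1.08 (0.21 to 1.96, adjusted p = 0.435). Hoxa5 had the smallest p-value, at 0.97 (0.46 to 1.48, adjusted p = 0.245). There 33 of 35 values were above 0 (all probes: 56%), with 7 probes higher without overlap (all probes: 7.1%) and 0 lower (all probes: 6.13%).

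Reprogrammed lung minus adult mammary also gave 0 of 35 (all probes: 0.0283%), but the differences leaned one way. A value above 0 was found for 32 of 35 Hox probes (all probes: 56.4%), 12 had an unadjusted p under 0.05 (all probes: 11.7%), and for 10 all reprogrammed lung arrays lay above all adult mammary arrays (all probes: 6.11%) and for 0 below (all probes: 5.24%). Their median was 0.70, against 0.07 over all probes. The 10 probes were Hoxa5, Hoxa7, Hoxb7, Hoxb8, Hoxc8, Hoxd4, Hoxd8, Hoxd9 (both probes) and Hoxd10. Hoxd4 differed by 1.37 ± 0.32 (adjusted p = 0.208), Hoxb7 by 1.21 ± 0.24 (adjusted p = 0.165) and Hoxa5 by 0.98 ± 0.23 (adjusted p = 0.209). Without reprogrammed lung replicate 1 the Hox median was 0.46 (all probes: -0.01) and 9 probes had an unadjusted p under 0.05 (all probes: 11.5%). Without that array and adult mammary replicate 4, the median was 0.32 (all probes: 0.03) and 5 did (all probes: 12.3%). Hoxd4 alone passed once, at 1.71 without reprogrammed lung replicate 4 (adjusted p = 0.0264). Reprogrammed lung replicate 1 and adult mammary replicate 4 are the arrays with the narrow signal range, whose part in these values was not tested.

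The reprogrammed minus adult change differed between lung and mammary for 12 of 35 Hox probes in the interaction term of the same fit (all probes: 13.2%), with 8 higher for lung (all probes: 7.61%) and 4 lower (all probes: 5.57%).

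As a description over all 35 tested probes, the mean absolute log2 distance of a reprogrammed lung array was 1.77 to 2.07 from the adult lung mean, 0.53 to 1.15 from the adult mammary mean and 0.44 to 0.92 from the reprogrammed mammary mean. Reprogrammed mammary arrays were 1.72 to 1.75 from adult lung and 0.35 to 0.48 from adult mammary. Adult lung arrays were 0.32 to 0.42 from the mean of the other adult lung arrays, and adult mammary arrays 0.45 to 0.55 from theirs. Measured in the same way, reprogrammed lung arrays were 0.51 to 0.84 and reprogrammed mammary arrays 0.24 to 0.34 from the others of their group. Over all probes the distance of reprogrammed lung arrays was 0.80 to 0.99 from adult lung and 0.42 to 0.87 from adult mammary.

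Hox proteins bind DNA with cofactors of the Pbx, Meis and Prep families. Of the 9 cofactor genes, all tested, 4 were higher in adult lung than in adult mammary and 0 lower (29.3% of all probes called in either direction, median 0.41, all probes -0.02). They were Pknox2 (3.39 ± 0.28, adjusted p = 2.7e-05), Meis1 (1.90 ± 0.36), Meis2 (1.86 ± 0.37) and Pbx3 (1.01 ± 0.28). The same 4 were lower in reprogrammed than in adult lung, by -2.98 for Pknox2, -2.72 for Meis1, -1.27 for Meis2 and -1.26 for Pbx3, with 0 higher (23.8% of all probes called, median -0.49, all probes 0.09). Of 8 related homeobox genes outside the rule (Evx, Cdx, Gsx and Pdx1), 4 were tested and 0 called in either comparison.

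Retinoic acid, a vitamin A derivative that induces Hox genes in order along the embryo, had 17 tested genes of synthesis, breakdown and reception. Between the adult organs 4 were higher and 3 lower, against 29.3% of all probes called. The synthesis enzyme Aldh1a3 was lower in lung (-5.93 ± 0.69, adjusted p = 0.000218, with 2 of 3 adult lung arrays above background), while Aldh1a1, another synthesis enzyme, was higher by 4.46 ± 0.58 (adjusted p = 0.000379) and the breakdown enzyme Cyp26b1 by 3.32 ± 0.40 (adjusted p = 0.000258). In reprogrammed against adult lung 2 were higher and 3 lower, against 23.8% of all probes called, led by Aldh1a3 (6.01 ± 0.69), Aldh1a1 (-4.26 ± 0.58) and Cyp26b1 (-3.14 ± 0.40). Polycomb proteins keep silent Hox genes shut. Of 14 tested subunits, 1 was higher and 4 lower in adult lung than in adult mammary, a share near the 29.3% of all probes called, led by the methyltransferase Ezh2 (-1.23 ± 0.21, adjusted p = 0.00196), its partner Jarid2 (-0.95 ± 0.21) and the ubiquitin ligase Rnf2 (-0.75 ± 0.15). Between reprogrammed and adult lung 2 were higher, Eed (0.53 ± 0.17, adjusted p = 0.0446) and Rnf2 (0.48 ± 0.15, adjusted p = 0.0403), and 0 lower, against 23.8% of all probes called. Of 8 tested Trithorax and demethylase genes, which oppose Polycomb, 1 was lower in adult lung than in adult mammary (Kdm6b, -0.84 ± 0.24, adjusted p = 0.0266) and 0 were called between reprogrammed and adult lung. Among all probes, 29.3% and 23.8% were called in these 2 comparisons. Of 13 noncoding Hox transcripts 0 matched a probe. In reprogrammed lung or reprogrammed mammary against adult mammary, and between the reprogrammed groups, 0 members of these lists were called.

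Marker genes of other cell types were also called between the adult organs and between reprogrammed and adult lung. Over all probes, 12.8% were higher and 16.5% lower in adult lung than in adult mammary. Although the labels name epithelial cells, 8 of 10 pan-epithelial genes were lower in adult lung than in adult mammary and 0 higher, among them Epcam (-3.82 ± 0.63) and Cldn4 (-5.14 ± 0.73). Their mean level per array was 0.76 to 2.62 in reprogrammed lung, -0.07 to 0.46 in adult lung and 2.98 to 3.13 in adult mammary. Lung epithelial markers had a mean level of -3.15 to -2.28 in reprogrammed lung, 4.09 to 4.31 in adult lung and -3.48 to -2.70 in adult mammary, and Nkx2-1, the defining regulator, was not well above background on any reprogrammed lung or adult mammary array. Endothelial genes were higher in adult lung than in adult mammary for 10 of 12 and lower for 0, with a mean level of 2.05 to 2.27 in reprogrammed lung, 3.72 to 3.94 in adult lung and 0.93 to 2.10 in adult mammary. Regulators of lung mesenchyme were higher for 5 of 8 and lower for 0, led by Tbx4 (6.45 ± 0.29) and Foxf1 (6.27 ± 0.35). Their mean was -3.07 to -1.92 in reprogrammed lung, 0.22 to 0.54 in adult lung and -2.87 to -2.61 in adult mammary. Fibroblast genes went both ways, with 2 of 12 higher and 4 lower (2.12 to 4.34 in reprogrammed lung, 1.34 to 2.23 in adult lung, 2.67 to 3.42 in adult mammary). Mammary epithelial markers were lower in adult lung for 10 of 10, with means of -0.52 to 2.90 in reprogrammed lung, -5.29 to -4.34 in adult lung and 1.11 to 2.30 in adult mammary. Csn1s1, Csn2, Esr1 and Btn1a1 of this list were not well above background on any adult lung array. In reprogrammed minus adult lung, higher and lower calls were 0 and 10 of 12 for endothelial genes, 0 and 9 of 10 for lung epithelial, 8 and 0 of 10 for mammary epithelial, 6 and 0 of 10 for pan-epithelial and 4 and 2 of 12 for fibroblast genes. All probes gave 13.9% higher and 9.84% lower in that comparison. Between the adult organs, higher and lower calls were 1 and 4 of 7 for smooth muscle and myoepithelial genes, 1 and 3 of 6 for adipocyte, 0 and 2 of 6 for macrophage, 1 and 0 of 7 for kidney tubule, 2 and 0 of 8 for skeletal muscle, and 0 for B and T cell genes. Counts over so few genes were not tested against the 12.8% and 16.5% of all probes. The part of these cell types in the Hox results was not tested.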

How the data were processed

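Single-colour whole mouse genome arrays (12) were analysed. Per the file headers, the deposited intensity of each spot is the background-subtracted, detrended signal of Agilent Feature Extraction 10.5.1.1 (10.1 per the submitters' processing notes), not scaled between arrays. The authors' deposited series matrix holds log2 values, used as an alternative, and their method is not given in the sources used.

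Spots of a probe were averaged without outlier spots, and each array's log2 signal was set relative to its 75th percentile. Accessions were named through a RefSeq table (24844 of 41174 probes). Group means were fitted with limma 3.58.1 (R 4.3.3) to all 12 arrays, without covariates, on 31776 probes well above background on all 3 arrays of at least 1 group. Of these, 366 lacked a value on some array. Residual and prior degrees of freedom were 8 and 2.38, and two-sided p-values were adjusted by Benjamini-Hochberg over all probes of a comparison. The 3 arrays per group limit the precision. The fitting code was tested on simulated data. The design had foreseen mean spot signals for normexp, and the deposited median signals were used instead.

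Values on every array are given for Hox probes called in the adult, lung, mammary or reprogrammed comparison. They are also given for both probes of genes whose probes disagree, except the uncalled Hoxb3 probe, given by its range. From other lists up to 3 called members with the largest difference are named, plus Pbx3. Members and lists were chosen with earlier results of these data known. Same-numbered arrays of different groups did not deviate together (correlations -0.53 to 0.32, median 0.02, 13 pairs), so the numbers were not taken as pairs. Alternatives covered the background correction, scaling, filters, probes per gene, arrays in the fit, slide, replicate number, array weights and each array left out in turn.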

Additional observations from a re-analysis of the deposited data

Results flagged for a closer look

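The difference between reprogrammed and adult cells was not the same for lung and mammary in 12 of 35 Hox probes (limma interaction term, lung change minus mammary change, adjusted p under 0.05), against 13.2% of all probes. The 4 lower values were those of Hoxa5 (-2.62 ± 0.33 SE, adjusted p = 0.00108), Hoxb5 (-2.34 ± 0.37, adjusted p = 0.00358) and both Hoxa4 probes (-2.52 and -1.36, adjusted p = 0.0266 and 0.04). For these genes the level was lower in reprogrammed than in adult lung, with no call between reprogrammed and adult mammary.

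The 8 higher values were those of Hoxd9 (4.81 ± 0.58, probe A_52_P385584, adjusted p = 0.000924), Hoxb7 (2.00 ± 0.35, adjusted p = 0.00527), Hoxb9 (3.50, probe A_52_P98462), both Hoxc10 probes (8.54 and 3.57), Hoxc8 (2.84), Hoxd4 (3.73) and Hoxd8 (4.51). Adult lung was not well above background for Hoxc8, Hoxd4, Hoxd8 and 1 Hoxc10 probe, so their sizes have no exact scale. With normexp, the calls of Hoxb7 (0.99), Hoxb9 (0.93), Hoxc10 probe A_52_P351859 (1.32), Hoxd4 (0.63), Hoxd8 (0.31) and Hoxc8 (-0.39) were lost. Hoxd9 (3.70) and Hoxc10 probe A_51_P375754 (3.63) still passed, with 4.86% of all probes called. Both Hoxa4 calls were lost with the slide as a block (-2.48 and -1.28, adjusted p = 0.0812 and 0.0555), with the replicate number as a block (-2.38 and -1.42) and with several single arrays left out. Probe A_52_P443588 lost its call without any 1 adult lung array (-2.61, -2.53 and -2.42), without adult mammary replicate 4 (-2.16) and without reprogrammed mammary replicate 1 (-2.32) or 3 (-2.43). Probe A_52_P638382 lost it in 13 of 23 settings, without each adult lung array (-1.41, -1.31 and -1.35), adult mammary replicate 2 (-1.16) or 4 (-1.27), reprogrammed lung replicate 3 (-1.20) or 4 (-1.37), and reprogrammed mammary replicate 1 (-1.21) or 3 (-1.37). Conversely, leaving out 1 array brought Hoxa3 past the threshold (-1.94 without adult mammary replicate 1 and -1.76 without reprogrammed lung replicate 1 on probe A_51_P335169, and -1.03 without reprogrammed lung replicate 1 on A_52_P447935), as it did Hoxc9 (3.21 without reprogrammed lung replicate 3) and Hoxd3 (1.95 without reprogrammed lung replicate 4 and 2.03 without reprogrammed mammary replicate 2).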

How the results depend on the processing

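Hoxa5, Hoxb5, Hoxd9 (A_52_P385584) and Hoxc10 (A_51_P375754) kept direction and call under every alternative that tested them, in each comparison with adult lung. Between the adult organs these ran from 2.52 to 3.77 for Hoxa5, 2.27 to 3.78 for Hoxb5, -4.66 to -3.12 for Hoxd9 and -8.51 to -3.32 for Hoxc10. Counts of called Hox probes were 15 between the adult organs, 18 for reprogrammed minus adult lung, 16 for reprogrammed mammary minus adult lung and 12 for the interaction. In that order they fell to 7, 8, 9 and 5 with normexp, and to 9, 10, 10 and 6 over the 23 Hox probes above background on all arrays, a filter that removes genes silent in adult lung. Shares of all probes called, in the same order, were 29.3%, 23.8%, 26.8% and 13.2% in the main fit. They were 19.5%, 11.6%, 18.7% and 4.86% with normexp, and 29.9%, 22.6%, 27.1% and 13% with that filter. Hox calls between the adult organs with that filter were 7 higher and 2 lower, against 6 and 9, and for reprogrammed minus adult lung 4 higher and 6 lower, against 12 and 6. With each array left out in turn the Hox counts ran from 14 to 19, 14 to 18, 14 to 17 and 10 to 14, and from 0 to 1 for reprogrammed lung minus adult mammary (1 without reprogrammed lung replicate 4) and 0 to 0 for reprogrammed minus adult mammary and between the reprogrammed groups. For the first 4, shares of all probes called ran from 19.9% to 39.2%, 16.3% to 30.1%, 18.9% to 36.1% and 7.85% to 21.9%. Normexp turned the sign of Hoxc8 (0.53, -0.00053, -0.14 and -0.39 in the same order), Hoxc9 between the adult organs (0.058), Hoxd3 in reprogrammed minus adult lung (-0.28) and Hoxb9 (A_52_P973575) in reprogrammed mammary minus adult lung (-0.14), and the cause was not tested. With the replicate number as a block the counts were 14, 16, 15 and 10 (all probes: 20.8%, 15.5%, 21.7% and 4.83%). The deposited log2 values, both other scalings, no filter and 1 probe per gene gave 12 to 16 calls between the adult organs (all probes: 19.3% to 28.4%). Probes below background in adult lung have only bounds, which hold for the background correction of the main fit alone. With 3 arrays per group, a missed call does not show that values were equal.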
